A study of Mus musculus with 6 samples.

Results

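The genes described here are 7 effectors that neurons make in response to activity and that act at the synapse, outside the cell or on the genome: Bdnf, Nptx1, Nptx2, Homer1, Plat, Gadd45b and Arc. They were taken by name, as every probe set of the array that carries 1 of these symbols and no other, which gave 14 probe sets out of 20380 with a single gene symbol. The tissue was the paraventricular nucleus of the hypothalamus (PVN), a small nucleus of neuroendocrine and autonomic neurons, from C57Bl/6 mice. One group of mice was anesthetized with isoflurane and fitted with ear clips but got no current (sham, tissue at 2 h), and the other groups got 1 electroconvulsive seizure (ECS) of 25 mA for 1 s, with tissue at 2 h or at 6 h. All groups therefore share the isoflurane, and a sham at 6 h is not among the groups, so that in the comparison of 6 h with sham the seizure and the later collection cannot be told apart. Each group holds 2 arrays, and each array is RNA of 2 or 3 animals pooled after laser microdissection.

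Genes that respond to neuronal activity include transcription factors and effectors, and the latter act on the cell directly. Among the effectors, BDNF is a secreted neurotrophin that acts through the TrkB receptor, the pentraxins Nptx1 and Nptx2 are secreted proteins that gather AMPA-type glutamate receptors, and tissue plasminogen activator, the product of Plat, is a secreted protease whose product plasmin can cut the BDNF precursor. Homer1 links metabotropic glutamate receptors to the postsynaptic scaffold, and a short form made after activity breaks that link. Arc drives the removal of AMPA receptors from the membrane, and Gadd45b is a stress-inducible nuclear protein tied to DNA demethylation. Seizures are known as strong inducers of most of them in the hippocampus.

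RefSeq promoter windows (build GRCm38.p6, 250 bases before to 50 after a transcript start) were at hand for 3 of the 7 genes, with 7 windows for Bdnf, 2 for Homer1 and 1 for Gadd45b. The 3 shown are those of the members with a motif of the activity-dependent factors near the start. They belong to the gene with the smallest unadjusted p at 2 h (Gadd45b) and to the third Bdnf start by position. The other belongs to the gene whose leading probe set had the most negative change from sham at 6 h (Homer1). Capitals mark matches, on either strand, to TGACG, the core of the cyclic AMP response element that CREB binds, to GCGNGGGCG, a site of the Egr factors, and to the TATAAA box.
Gadd45b, chr10:80929841-80930140, plus strand: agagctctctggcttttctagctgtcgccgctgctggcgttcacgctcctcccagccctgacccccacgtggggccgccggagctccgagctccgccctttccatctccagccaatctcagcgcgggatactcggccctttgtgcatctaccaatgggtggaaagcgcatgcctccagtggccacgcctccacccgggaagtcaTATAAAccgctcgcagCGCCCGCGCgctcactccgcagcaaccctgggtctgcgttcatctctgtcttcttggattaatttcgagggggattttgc
Homer1, chr13:93303507-93303806, plus strand: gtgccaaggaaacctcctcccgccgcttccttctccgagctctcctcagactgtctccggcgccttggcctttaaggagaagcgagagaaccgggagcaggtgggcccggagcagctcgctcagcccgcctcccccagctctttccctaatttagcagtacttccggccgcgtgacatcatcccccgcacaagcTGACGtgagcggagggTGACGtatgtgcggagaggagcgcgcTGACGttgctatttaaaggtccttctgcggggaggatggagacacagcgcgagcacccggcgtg
Bdnf, chr2:109692186-109692485, plus strand: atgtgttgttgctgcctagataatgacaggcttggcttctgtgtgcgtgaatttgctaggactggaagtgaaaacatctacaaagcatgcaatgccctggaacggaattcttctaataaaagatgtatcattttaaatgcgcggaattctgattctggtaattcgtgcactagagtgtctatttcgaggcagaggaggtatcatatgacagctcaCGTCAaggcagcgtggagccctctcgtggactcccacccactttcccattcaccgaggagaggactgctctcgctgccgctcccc
Counted from the transcript start, the Gadd45b window holds TATAAA from position -46 and an Egr match, as CGCCCGCGC on the minus strand, from -30. The Homer1 window holds TGACG at -56, -40 and -14, and the Bdnf window holds it once on the minus strand, as CGTCA, from -35. Among the 10 member windows these matches were found only in the 3 printed, which were picked for holding them. Of all 32851 windows of this length 20.8% hold TGACG, 5.55% the Egr site and 13.6% TATAAA. The whole element TGACGTCA (1.79% of windows) and the CArG box, the site of serum response factor (1.63%), were found in none of the 10 member windows, and the AP-1 site TGANTCA (7.81%) in 1 of the other Bdnf windows. These matches are letters in a window, and binding was not measured.

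Values below are log2 signals after adding an offset of 16 to the scaled signal, so that 4 is the floor and the median probe set of an array lies at 5.57. The members are dim. Their deposited signals ran from 0.8 to 250.4, and 47 of the 84 values reached the median of their array. A probe set was tested if it reached that median on at least 2 arrays, which 9 of the 14 did: 2 for Nptx1, 2 for Homer1, 2 for Gadd45b and 1 each for Bdnf, Nptx2 and Plat. The only probe set of Arc and 1 each of Bdnf, Nptx2, Homer1 and Gadd45b were not tested, and their values are given as descriptions. Where a gene had several probe sets, the one of highest mean signal is given first. Levels of different probe sets cannot be set against each other.

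As to the arrays themselves, the median deposited signal ran from 25.2 to 40.8, and replicate 1 at 6 h stood apart with the lowest mean rank correlation to the others (0.887, against 0.906 to 0.919) and the highest ratio of 3' to 5' Gapdh signal (14.1, against 6.43 to 10.5). Oxt, the oxytocin gene that defines the nucleus, was bright on all 6 arrays (deposited signals of 1495 to 3286), while Otp, a developmental factor of the region, stayed below the array median on all 6. Markers of cortical and hippocampal neurons differed most between the groups. Their summed scaled signal (8 of 12 listed genes have a probe set) was 2795 and 2804 in sham, 280 and 300 at 2 h, and 462 and 1591 at 6 h, and Tbr1, a cortical factor among them, had deposited signals of 3.2 to 5.8 on both 2 h arrays and replicate 1 at 6 h against 88.7 and 92.1 in sham. The sum weighs most on Kalrn, Mef2c and Camk2a, its brightest genes, and the list was chosen with earlier results of these data known. All 6 tested genes of the list were lower at 2 h than in sham, with a median log2 change of -2.56. General neuron markers (10 of 10 genes) summed to 15743 and 14933 in sham, 11526 and 11539 at 2 h, and 12206 and 14000 at 6 h. In pooled tissue fewer cells of a type and less RNA per cell cannot be told apart, and whether the microdissected tissue held different shares of neighbouring regions in the 3 groups was not tested. Every difference from sham below, and above all the lower values of neuron genes, is to be read with these sums.

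**Figure D1:**
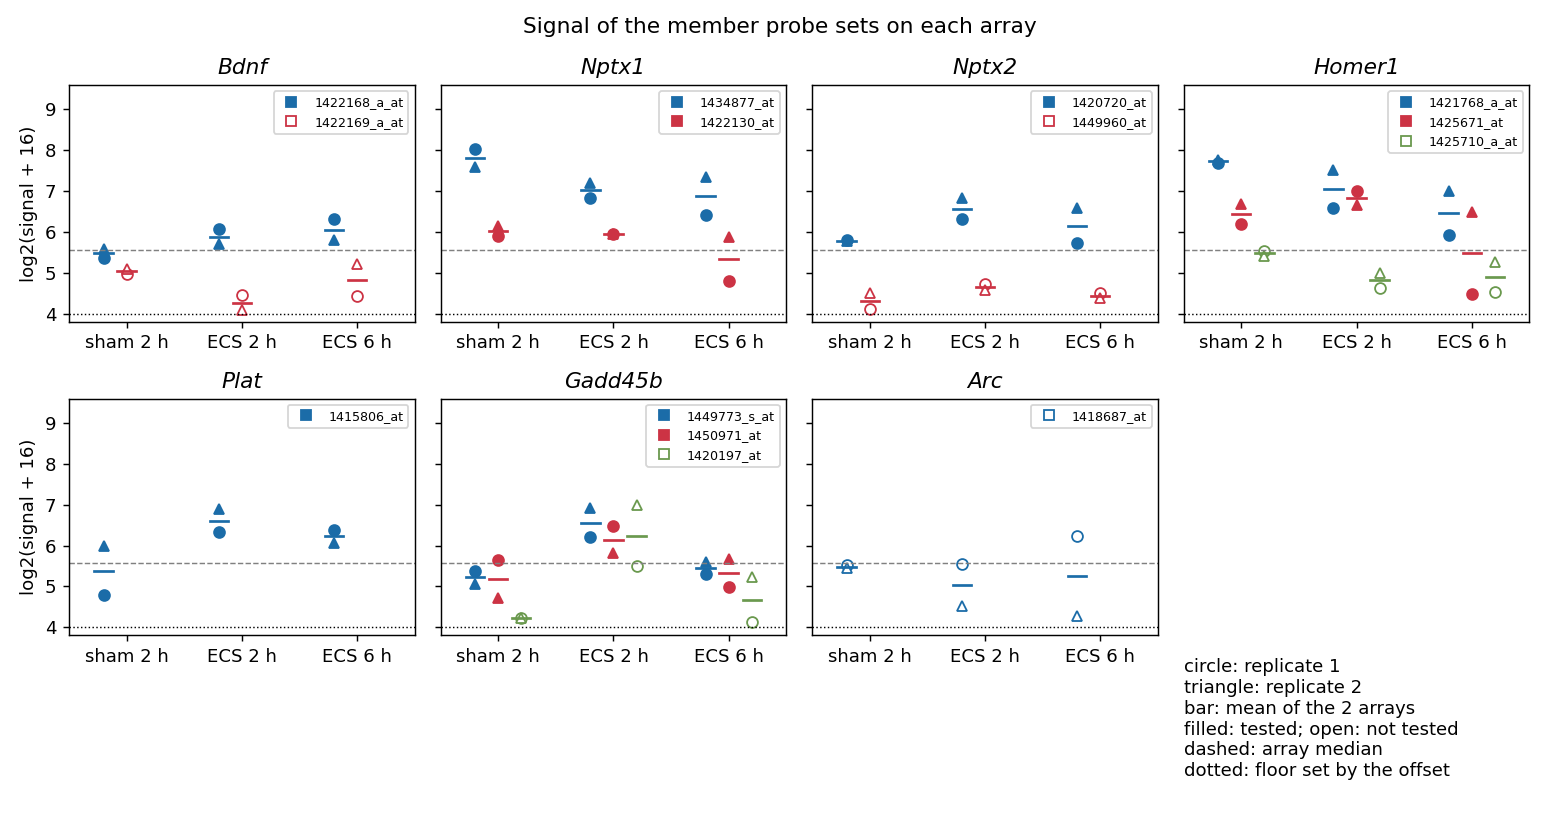
The log2(signal + 16) of all 14 member probe sets on each array, with 1 panel per gene, circles for replicate 1, triangles for replicate 2, bars for the mean of the 2 arrays, filled symbols for tested probe sets, a dashed line at the array median and a dotted line at the floor. All 3 Gadd45b probe sets lie higher on both 2 h arrays than on any sham or 6 h array, while the leading Homer1 and Nptx1 probe sets lie below sham on all 4 seizure arrays.

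Gadd45b, the nuclear regulator, had the smallest unadjusted p of the 7 genes at 2 h, where it was higher than in sham, and at 6 h it lay near sham. Its leading probe set 1449773_s_at read 5.38 and 5.06 in sham (replicates 1 and 2, in this order throughout), then 6.20 and 6.91 at 2 h, and 5.31 and 5.61 at 6 h. Both 2 h arrays lay above all other arrays, and the sham and 6 h arrays overlapped. The group means were 5.22 ± 0.22 in sham, 6.56 ± 0.50 at 2 h and 5.46 ± 0.21 at 6 h (SD, n = 2 in every group here and below). That is 2.53-fold higher at 2 h than in sham, a log2 change of 1.34 ± 0.44 (SE of limma, a linear model over all 6 arrays; unadjusted p = 0.0119), and the change from 2 h to 6 h was -1.10 ± 0.44 (unadjusted p = 0.0313). The suffix _s_at marks a probe set whose probes can match more than 1 transcript, so the other 2 probe sets matter here.

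The second tested Gadd45b probe set, 1450971_at, read 5.64 and 4.72 in sham, 6.49 and 5.81 at 2 h, and 4.97 and 5.67 at 6 h. Again both 2 h arrays lay above the sham and the 6 h arrays, with a log2 change of 0.97 ± 0.51 against sham. Without sham replicate 1 it was 1.45, without sham replicate 2 it was 0.51, and without replicate 1 at 2 h it was 0.64. The untested probe set 1420197_at was at 4.21 and 4.22 in sham, at the floor, and at 5.51 and 6.99 at 2 h, then 4.13 and 5.22 at 6 h. All 3 probe sets thus had the same order of groups, and within each replicate pair the 2 h array exceeded its sham by 0.83 and 1.85 (1449773_s_at), 0.85 and 1.08 (1450971_at), and 1.29 and 2.77 (1420197_at). Pairs here and below go by replicate number, read as the run of the experiment, which the labels do not state. The probe sets read the same 6 RNA pools and are no independent replicates. Since the sham signals were near the floor, the size depended on the offset: the change of 1449773_s_at was 1.83 with an offset of 1 and 0.75 with 64. This probe set reached the array median on both 2 h arrays and on replicate 2 at 6 h only, so its 2 h values had a part in its being tested.

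Plat, which encodes the secreted protease, was higher than sham on all 4 seizure arrays after scaling, on replicate 2 at 6 h barely, though its sham arrays differed widely. The probe set 1415806_at stood at 4.78 and 5.98 in sham, 6.33 and 6.90 at 2 h, and 6.39 and 6.06 at 6 h. The lowest seizure array, replicate 2 at 6 h, exceeded the highest sham array, replicate 2, by only 0.08, far less than the distance between the sham arrays. Its deposited signal, before scaling, was the lower one (57.3 against 60.7). Against sham the log2 change was 1.23 ± 0.48 at 2 h (2.35-fold, unadjusted p = 0.0273) and 0.84 ± 0.48 at 6 h. Without sham replicate 1 these were 0.64 and 0.24, and without sham replicate 2 they were 1.80 and 1.42. Endothelial and mural markers, genes of vessel cells that also make this protease (9 of 10 with a probe set, Vwf below the array median throughout), summed to 943 and 1332 in sham, 1217 and 1346 at 2 h, and 1070 and 1404 at 6 h, lowest on the same sham array. Markers of the PVN and hypothalamus (11 of 12 genes) summed to 4976 and 6369 in sham, 6703 and 7188 at 2 h, and 7427 and 7552 at 6 h, also lowest on that array and above sham on all 4 seizure arrays. This sum weighs most on its brightest genes, Oxt, Scg2, Trh and Avp, and Scg2 also stands in the list of further activity-regulated effectors below. Of the 10 tested genes 7 were higher and 3 lower at 2 h, and 9 higher and 1 lower at 6 h. Otp, untested and near the floor, lay below sham on all 4 seizure arrays. The part of either cell group in the Plat values was not tested.

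The pentraxins, which share their role at the AMPA receptor, lay on opposite sides of sham at 2 h. Nptx2, the member of the family known for its induction by activity, read 5.79 and 5.77 in sham, 6.31 and 6.83 at 2 h, and 5.72 and 6.58 at 6 h (1420720_at). The 2 h arrays lay above sham, and the 6 h arrays straddled it. The log2 change was 0.79 ± 0.43 at 2 h (1.72-fold, unadjusted p = 0.0973, and 0.52 without replicate 2 at 2 h) and 0.37 ± 0.43 at 6 h, the latter 0.79 without replicate 1 at 6 h and -0.06 without replicate 2. The second Nptx2 probe set, 1449960_at, lay between 4.10 and 4.73 on every array, near the floor, with both 2 h arrays above sham.

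Nptx1, the more constitutive pentraxin, was lower after the seizure. Its leading probe set 1434877_at stood at 8.03 and 7.60 in sham, 6.83 and 7.21 at 2 h, and 6.42 and 7.34 at 6 h. All 4 seizure arrays lay below both sham arrays, and the 2 h and 6 h arrays overlapped. The log2 change was -0.80 ± 0.41 at 2 h (1.74-fold lower, unadjusted p = 0.0775) and -0.94 ± 0.41 at 6 h (1.91-fold lower, unadjusted p = 0.0437), the latter -0.47 without replicate 1 at 6 h. The second probe set did not follow at 2 h. 1422130_at read 5.91 and 6.13 in sham, 5.96 and 5.95 at 2 h, and 4.79 and 5.87 at 6 h, so that only the 6 h arrays lay below sham, and 1 of them by a wide margin.

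Homer1, the scaffold gene, lay lowest at 6 h by the means of its tested probe sets. The leading probe set 1421768_a_at was at 7.68 and 7.77 in sham, 6.59 and 7.52 at 2 h, and 5.94 and 7.00 at 6 h. Every seizure array lay below both sham arrays. If arrays are paired by replicate number, the 6 h array lay below the 2 h array in each pair (by 0.65 and 0.53). As groups the 2 h and 6 h arrays overlapped. The log2 change between them was -0.59 ± 0.46, and from -1.12 to -0.06 with single arrays left out. Against sham the log2 change was -0.67 ± 0.46 at 2 h and -1.26 ± 0.46 at 6 h (2.39-fold lower, unadjusted p = 0.0192). At 2 h it was -0.20 without replicate 1 and -1.13 without replicate 2 of that group, and at 6 h it was -0.72 without replicate 1 of that group.

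A second Homer1 probe set did not lie below sham at 2 h, and which transcript form each one reads is not given in the sources used here. 1425671_at stood at 6.19 and 6.69 in sham, 6.99 and 6.65 at 2 h, and 4.48 and 6.49 at 6 h. The sham and 2 h arrays overlapped, with a log2 change of 0.38 ± 0.59, where the leading probe set had -0.67. Leaving out single arrays moved this value from 0.13 (without sham replicate 1) to 0.63 (without sham replicate 2), and it was 0.21 without replicate 1 at 2 h. From 2 h to 6 h it was lower by a log2 change of -1.33 ± 0.59 (unadjusted p = 0.0445), but that value was -0.33 without replicate 1 at 6 h, whose signal was near the floor. The untested 1425710_a_at read 5.55 and 5.41 in sham, 4.64 and 4.99 at 2 h, and 4.52 and 5.26 at 6 h, below sham on all 4 seizure arrays like the leading one. Its mean was not lowest at 6 h (4.81 at 2 h and 4.89 at 6 h). The difference between probe sets was not tested.

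**Figure D2:**
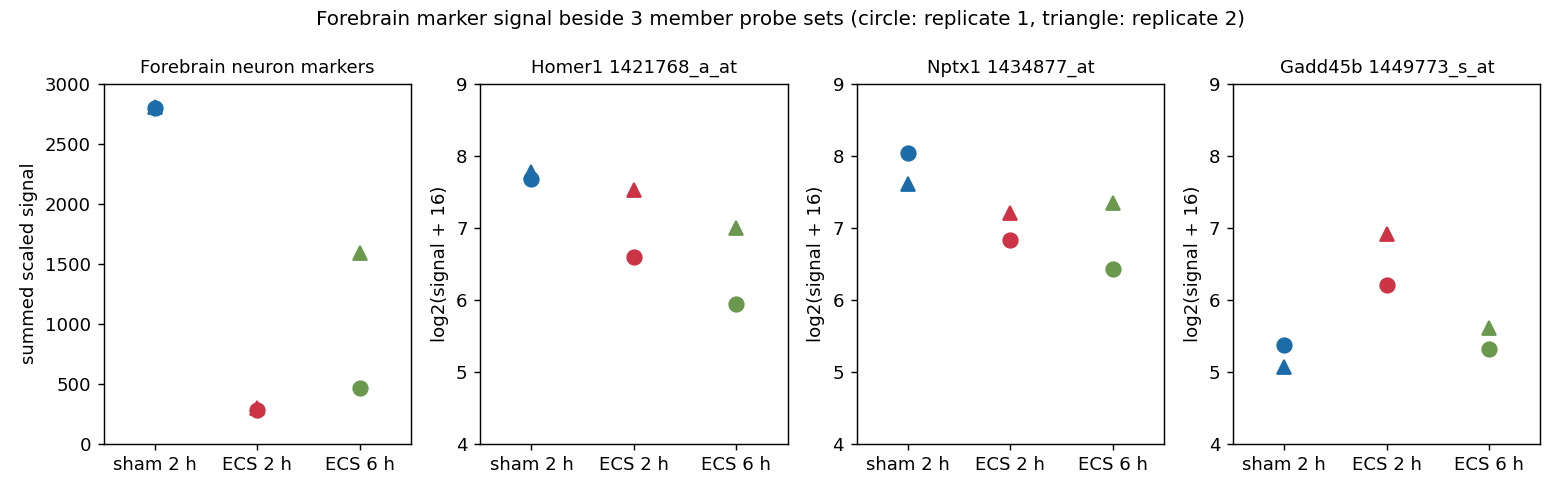
The summed scaled signal of the cortical and hippocampal neuron markers on each array (first panel, linear axis from 0) beside the log2(signal + 16) of the leading Homer1, Nptx1 and Gadd45b probe sets; circles are replicate 1 and triangles replicate 2. The marker sum is 2795 and 2804 in sham and 280 and 300 at 2 h, Homer1 and Nptx1 lie below sham on the same arrays on which the marker sum does, and Gadd45b lies highest at 2 h. Among the seizure groups the marker sum is lowest at 2 h, while the mean of Homer1 is lowest at 6 h. In both seizure groups replicate 1 lies below replicate 2 in every panel.

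Homer1 and Nptx1 are abundant in cortex and hippocampus, and their lower values came on the same arrays as the lower marker sum. Oligodendrocyte markers (8 of 9 genes, Mag below the array median throughout) were also below sham on these arrays, with sums of 3460 and 3182 in sham, 2683 and 2822 at 2 h, and 2367 and 2525 at 6 h. The sum of the PVN and hypothalamus markers was above sham on all of them. In both seizure groups replicate 1 lay below replicate 2 for the cortical and hippocampal sum and for the leading Homer1, Nptx1 and Gadd45b probe sets. The order of the seizure groups was not shared. The cortical and hippocampal sum was lowest at 2 h (280 and 300, then 462 and 1591 at 6 h). The mean of the leading Homer1 probe set was lowest at 6 h (6.59 and 7.52 at 2 h, then 5.94 and 7.00). Its arrays overlapped between 2 h and 6 h, as did those of Nptx1. The part of these cell groups in the values of Homer1 and Nptx1 was not tested.

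Bdnf, the neurotrophin, differed little. Its tested probe set 1422168_a_at read 5.36 and 5.59 in sham, 6.06 and 5.71 at 2 h, and 6.32 and 5.80 at 6 h. All 4 seizure arrays lay above sham, replicate 2 by only 0.12 at 2 h and 0.21 at 6 h within its pair, as did the sum of the PVN and hypothalamus markers, whose part was not tested. The log2 change was 0.41 ± 0.42 at 2 h and 0.59 ± 0.42 at 6 h, neither with an unadjusted p under 0.05. Without replicate 1 of the seizure group compared these were 0.24 and 0.32. The untested probe set 1422169_a_at went the other way at 2 h, with 4.98 and 5.08 in sham against 4.45 and 4.08 at 2 h and 4.42 and 5.22 at 6 h, all below the array median. The 2 Bdnf probe sets thus give no common direction.

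Arc was too dim to be read. Its only probe set, 1418687_at, stood at 5.51 and 5.44 in sham, 5.54 and 4.52 at 2 h, and 6.23 and 4.29 at 6 h. Only replicate 1 at 6 h, the array that stood apart, reached the array median. The 6 h arrays were the highest and the lowest of all 6, so no difference between groups was detectable for this gene at this signal.

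**Figure D3:**
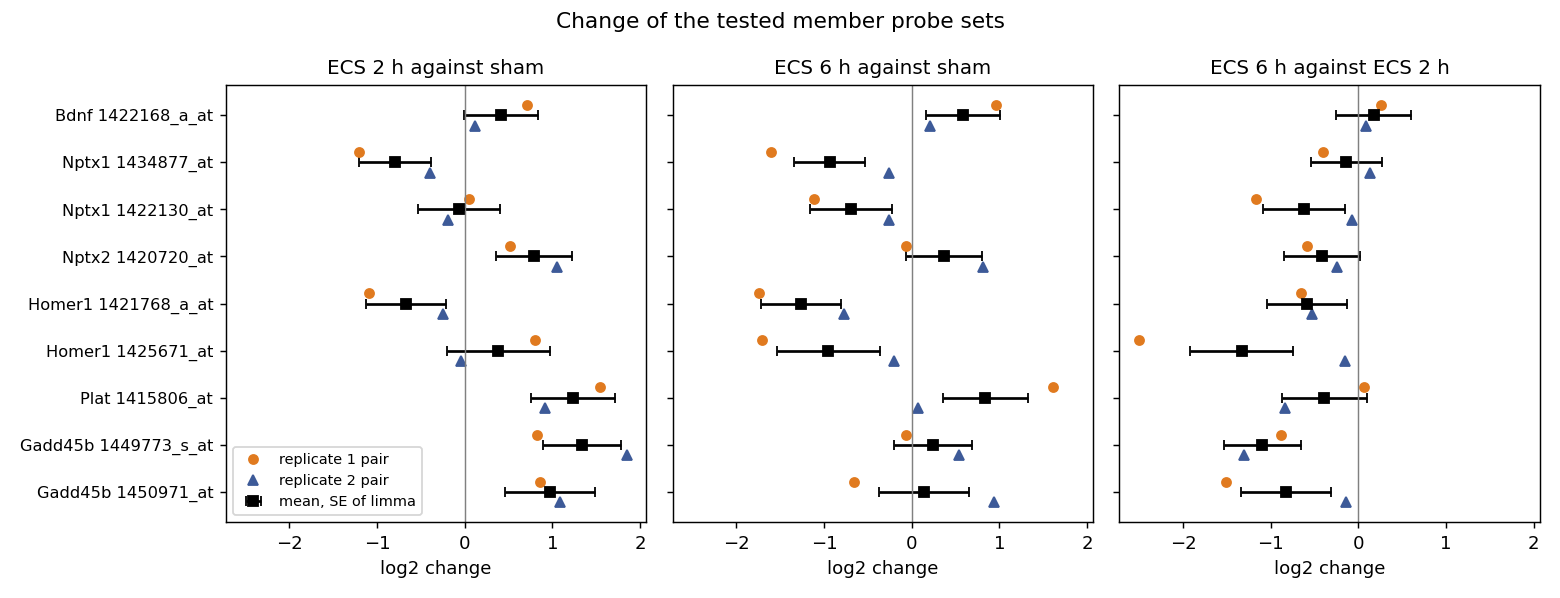
Log2 changes of the 9 tested member probe sets in the 3 comparisons: squares with bars are the fitted change and its standard error in limma, circles the difference within the replicate 1 pair and triangles within the replicate 2 pair. At 2 h both pairs are above 0 for Bdnf, Nptx2, Plat and both Gadd45b probe sets, and between 2 h and 6 h both pairs are below 0 for both Gadd45b and both Homer1 probe sets, for Nptx2 and for 1 Nptx1 probe set. Pairs go by replicate number, read as the run, which the labels do not state.

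Set against the whole array, limma called 0 of the 9 tested member probe sets in each comparison, with Benjamini-Hochberg adjustment over all 12662 tested probe sets (adjusted p = 1.00 for each member against sham and 0.999 between the seizure groups). Of all tested probe sets 0% were called in each of the 3 comparisons as well. At an unadjusted p under 0.05 there were 507 probe sets at 2 h and 475 at 6 h against sham, and 438 between 6 h and 2 h (4.0%, 3.8% and 3.5%). Among the members there were 2 of 9 each time: Gadd45b and Plat at 2 h, Homer1 and Nptx1 at 6 h, and Gadd45b and Homer1 between 6 h and 2 h. This Gadd45b probe set was tested partly through its high 2 h arrays, and the members were chosen with earlier results of these data known. The share of members is therefore a description and no test against the share of all probe sets. The comparisons with sham share the same 2 sham arrays, and the comparison of 6 h with 2 h shares the seizure arrays of both.

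Over all 14 member probe sets, tested or not, both 2 h arrays lay above both sham arrays in 7, below in 4, and the groups overlapped in 3. At 6 h against sham 2 lay above, 4 below and 8 overlapped, and at 6 h against 2 h 0 lay above, 6 below and 8 overlapped. For these counts no share over tested and untested probe sets of the whole array was taken, so they have no background beside them. The untested members reached the array median on 1 array at most. Among the 9 that were tested, 5 lay above sham at 2 h (Bdnf, Nptx2, Plat and both of Gadd45b), where 16.3% of all tested probe sets had this order, and 2 below (1 each of Nptx1 and Homer1), where the share was 16.4%. At 6 h against sham 2 of the 9 lay above (Bdnf and Plat, background 14.8%) and 3 below (both of Nptx1 and 1 of Homer1, background 15.3%). From 2 h to 6 h 0 of the 9 lay above (background 14.4%) and 4 below (both of Gadd45b, 1 of Nptx1 and 1 of Homer1, background 15%). These counts are a description, since some of the 9 passed the filter through bright seizure arrays and probe sets of 1 gene count more than once.

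The median log2 change of the 9 was 0.41 at 2 h, 0.14 at 6 h and -0.59 from 2 h to 6 h, beside 0.01, -0.00 and -0.01 for all tested probe sets. Single arrays moved all of these values. At 2 h the median was 0.24 without replicate 1 at 2 h and 0.55 without replicate 2 at 2 h. At 6 h against sham the median was -0.31 without sham replicate 2 and -0.20 without replicate 2 at 6 h. From 2 h to 6 h it was -0.15 without replicate 2 at 2 h, and -0.09 without replicate 1 at 6 h, with 7 of 9 lower.

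**Figure D4:**
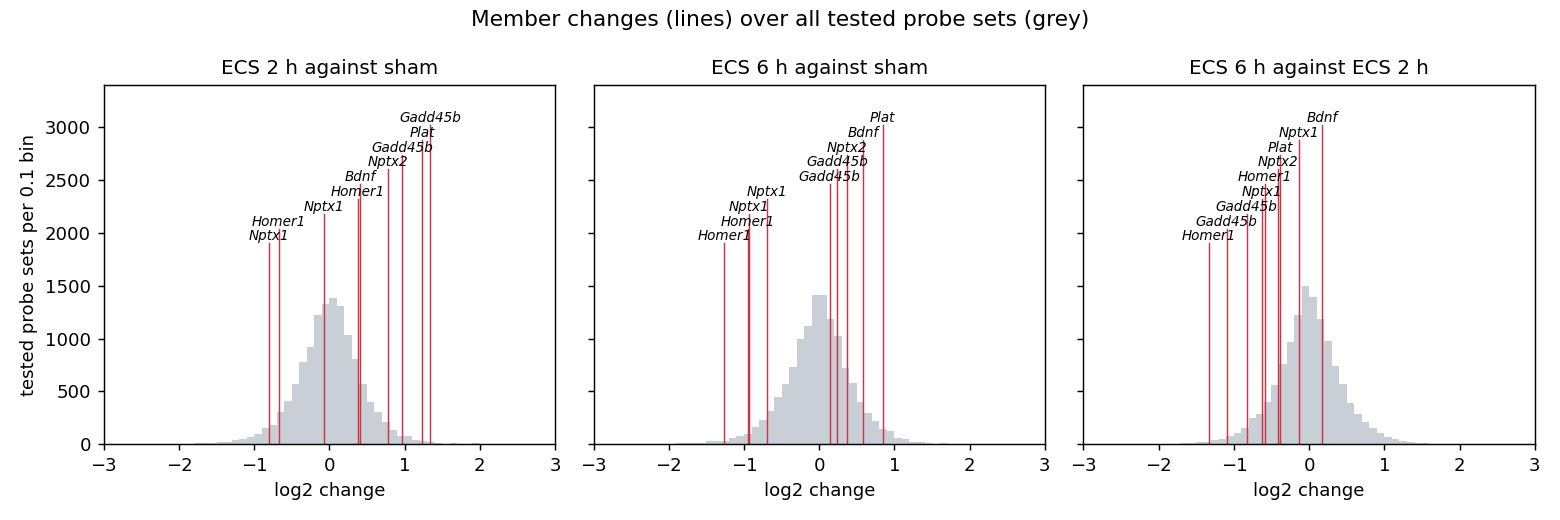
Histograms of the log2 change of all 12662 tested probe sets (grey, bins of 0.1) in the 3 comparisons, with a line and a name for each of the 9 tested member probe sets; the heights of the lines carry no value, and the most extreme probe sets lie beyond the axis. At 2 h the lines spread from -0.80 (Nptx1) to 1.34 (Gadd45b), and between 6 h and 2 h 8 of the 9 lie below 0.

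Other genes of each member's pathway were read from lists, with 1 probe set per gene, and limma called 0 of them in any comparison. Of the BDNF system 9 of 19 listed genes were tested, and 7 were higher than sham at 2 h and 5 at 6 h, with medians of 0.38 and 0.00. Ntrk2, the TrkB receptor, was at 0.53 ± 0.37 at 2 h and 0.39 ± 0.37 at 6 h. Pcsk1, a convertase of peptide precursors, was at 0.65 ± 0.32 and 0.70 ± 0.32, with both seizure groups above sham on every array. Creb1, the factor that binds the cyclic AMP response element, was at 0.73 ± 0.49 and 0.95 ± 0.49, likewise without overlap.

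Among AMPA receptor genes and partners of the pentraxins (10 of 15 tested), 4 were higher and 6 lower at 2 h, and 3 higher and 7 lower at 6 h, with medians of -0.17 and -0.25. Cacng3, an auxiliary subunit of AMPA receptors in the forebrain, was at -0.88 ± 0.44 at 2 h, and Gria3, a pore subunit, at -0.69 ± 0.40. Partners of Homer1 at the postsynapse (8 of 17 tested) were split evenly at 2 h, with 4 higher and 4 lower, but 7 of 8 were lower at 6 h, with a median of -0.39. Ryr2, a calcium release channel, was at -1.20 ± 0.41 at 2 h, Dlg4, the scaffold PSD-95, at -0.76 ± 0.49, and Shank3, a scaffold that binds Homer proteins, at -0.61 ± 0.40 at 6 h. These lists hold neuron genes, and the part of the cortical and hippocampal neurons, whose marker sum was lowest at 2 h, was not tested.

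Of the plasminogen system only 5 of 19 genes were bright enough to test. Plau and Plaur, the related urokinase and its receptor, and plasminogen itself did not pass the filter. S100a10, a surface protein that binds tissue plasminogen activator and plasminogen, was at 0.40 ± 0.25 at 2 h and 0.58 ± 0.25 at 6 h, above sham on every seizure array, on a probe set whose suffix _x_at marks possible cross-hybridisation. The list as a whole had medians of -0.03 and -0.10. Of the relatives of Gadd45b and genes of DNA demethylation 7 of 15 were tested, with medians of 0.12 at 2 h and 0.20 at 6 h. Gadd45g stood at 0.51 ± 0.38 at 2 h, with both arrays above sham and both 6 h arrays below the 2 h arrays, as for Gadd45b, whose change was 1.34. Map3k4, the kinase that Gadd45 proteins activate, was at -0.86 ± 0.47.

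Genes tied to Arc were mostly lower, with 10 of 13 tested genes lower in both comparisons with sham and medians of -0.25 and -0.40. Camk2a, the synaptic kinase, was at -2.74 ± 0.53 at 2 h, and Mef2c, a factor of cortical neurons, at -3.47 ± 0.89 at 2 h and -2.60 ± 0.89 at 6 h. Both also stand in the list of cortical and hippocampal markers given above. Of the further activity-regulated effectors, 29 of 45 were tested and 23 were higher at 2 h (median 0.38), 19 at 6 h (median 0.30), and 11 at 6 h compared with 2 h (median -0.16). Rrad and Gem, small GTPases that inhibit calcium channels, were at 2.30 ± 0.40 and 1.14 ± 0.42 at 2 h and at -1.60 ± 0.40 and -0.98 ± 0.42 from 2 h to 6 h, each with both 2 h arrays above the sham and the 6 h arrays, as for Gadd45b. Immediate early transcription factors (18 of 31 tested) were higher at 2 h in 14 genes (median 0.56) and lower at 6 h than at 2 h in 17 (median -0.83), with Fos at 2.00 ± 0.42 and Maff at 1.96 ± 0.43 at 2 h.

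The genes whose signal ran most alike to a member over the 6 arrays were sought among 5938 probe sets whose log2 range was at least 1, by Pearson's r as a description. For Gadd45b these were Ngb (r = 0.99), the neuronal globin, Slc30a1 (0.98), a zinc exporter, and Lamc1 (0.98), a laminin chain. Plat ran with Fahd1 (0.99), H2-K1 (0.98) and Cbfb (0.98), Nptx2 with Yae1d1 (0.98), Rbl2 (0.97) and Enah (0.97), and Bdnf with Ssr1 (0.99), Fgl1 (0.98) and Cuedc1 (0.98). Nptx1 ran with Gca (0.99), Ttc39b (0.98) and Stag1 (0.98), and Homer1 with Gemin8 (0.99), Sh3rf1 (0.99) and Fbrs (0.98). With 6 arrays, between 23 (Nptx2) and 119 (Nptx1) probe sets exceeded r = 0.9 for a member, and all share the same pools and scaling. Within a gene the 3 Gadd45b probe sets correlated by 0.60 to 0.97, the 3 of Homer1 by 0.42 to 0.87, and the 2 of Bdnf by -0.47.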

How the data were processed

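Total RNA of 6 pools was amplified (2 ng each) and 5 µg of labelled cDNA hybridised to Affymetrix mouse arrays, per the labels' protocols. The authors deposited 1 intensity per probe set and array, by MAS5 according to the submitters' processing notes. No source used here gives its version or scaling target. Of 22690 probe sets the 64 controls were left out. Symbols came from the platform annotation, matched to RefSeq by Entrez ID for 20351 of 20380. Because array medians differed, intensities were quantile normalized and log2(value + 16) was taken. The 12662 probe sets at or above their array's median on at least 2 arrays were fitted in limma 3.58.1 (R 4.3.3), with a mean per group, an intensity trend (prior df 7.64, residual df 3) and Benjamini-Hochberg adjustment at 0.05, two-sided. The fit was tested on simulated data.

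The members and lists were chosen with earlier results of these data known. Named are all member probe sets, up to 3 genes per list and comparison with the smallest p, and the 3 nearest patterns per member. Per the labels, other animals were used in a repeat of the experiment, and the replicate numbers were read as these 2 runs, which the labels do not state. As a check, same-numbered arrays deviated together from their group means, with correlations of 0.23, 0.18 and 0.15 for the pairs of groups. Precision is limited by having 2 pools per group. An exact permutation over 2 against 2 arrays cannot reach 0.05. Alternatives covered offset, scaling, filter, trend, array weights, the replicate block, the arrays in the fit, averaging probe sets, and each array left out.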

Additional observations from a re-analysis of the deposited data

How the results depend on the processing

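Of the members, limma called 0 under all alternatives run, the replicate block included (its smallest member adjusted p was 0.58, for Gadd45b 1449773_s_at at 2 h). Over all probe sets the count at 2 h against sham, 0 here, was 1 with the values as deposited, 1 with median subtraction, 2 with array weights, 4 with the replicate block and 12 when the fit held no array beyond the 4 compared. Leaving out single arrays gave 0 to 10 at 2 h, 0 to 6 at 6 h against sham and 0 to 3 at 6 h against 2 h. Changes that kept their direction in all 17 alternatives were, at 2 h, those of the leading probe sets of Bdnf, Nptx1, Nptx2, Homer1, Plat and Gadd45b, and at 6 h against sham those of Bdnf, Nptx1, Homer1, Plat and Gadd45b. The filter, the trend and the replicate block cannot turn the sign of a difference of group means, so these alternatives say nothing about direction. Where the arrays of both groups do not overlap, another offset, array weights or a left-out array can hardly turn it either. This was the case for all of these changes but that of Gadd45b at 6 h, so their kept direction adds little. A kept direction is also no sign of a clear change, since Gadd45b at 6 h against sham was at 0.24 ± 0.44. Among tested member probe sets, directions turned when single arrays were left out for Nptx1 1422130_at at 2 h (-0.18 to 0.0438), Gadd45b 1450971_at (-0.31 to 0.61), Homer1 1425671_at (-1.94 to 0.050) and Nptx2 1420720_at (-0.0578 to 0.79) at 6 h against sham, and at 6 h against 2 h for Bdnf 1422168_a_at (-0.0901 to 0.43), Nptx1 1434877_at (-0.60 to 0.32) and Nptx2 1420720_at (-0.84 to 0.0171). Among untested ones they turned for Arc in all 3 comparisons (-0.97 to 0.065, -1.20 to 0.76 and -0.76 to 1.19 at 2 h, at 6 h and between them), at 6 h against sham for Bdnf 1422169_a_at (-0.60 to 0.19), Nptx2 1449960_at (-0.073 to 0.32) and Gadd45b 1420197_at (-0.089 to 1.02), and at 6 h against 2 h for Homer1 1425710_a_at (-0.29 to 0.45). Nptx1 1434877_at at 6 h against 2 h also turned with the values as deposited (0.00569). The cause was not tested. Over all alternatives the sign turned 11 times among tested and 9 times among untested member probe sets. The median change of all probe sets under median subtraction was 0.10 for 6 h against sham, and without scaling 0.16 for 6 h against 2 h. Signals near the floor limit what can be read for Arc and the dim probe sets.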
